A study of Ovis aries with 6 samples.

Results

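Store-operated calcium entry is carried by a small set of proteins that link the calcium store of a cell to its surface. ORAI1, ORAI2 and ORAI3 encode the pore subunits of a calcium channel in the plasma membrane, and STIM1 and STIM2 encode the calcium sensors in the membrane of the endoplasmic reticulum, which in muscle is the sarcoplasmic reticulum. These 5 genes were described in RNA-seq libraries of longissimus dorsi muscle, the long muscle along the back, from 2 sheep breeds. They were chosen by gene symbol from the count table and make up 5 of its 23144 listed genes. The set was put forward with the counts of the same 6 libraries known, ORAI1 being lower in 1 breed, so the breed contrast of these genes is given as a description with no test.

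Each library came from a separate female sheep aged 1 year. QHMM is the Qianhua Mutton Merino, kept for meat and wool, and STH is the Small Tail Han sheep, with 3 animals in each group, kept in the same environment. No treatment is labelled for either group. The comparison asks which genes are expressed differently in the muscle of the breeds, and breed is the only term that separates the groups. The libraries were read on an Ion Proton instrument and held between 10982191 and 14334544 counted reads.

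When the store loses calcium, STIM proteins lose the calcium bound to their part inside the store, cluster beneath the plasma membrane and open ORAI channels, and the calcium that enters refills the store. In skeletal muscle STIM1 and ORAI1 lie close to the triads, where the surface membrane meets the sarcoplasmic reticulum, and loss of either protein is known to cause muscle weakness together with immune deficiency. Gain-of-function variants of either gene are known in tubular aggregate myopathy.

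All 5 genes were counted in every library and passed the filter on low counts, which 12506 genes passed. Between genes, levels were compared as RPKM, which divides a gene's reads by its length and by the library total. The lengths that the deposited values imply were 1395 bases for ORAI1, 1877 for ORAI2, 1994 for ORAI3, 4327 for STIM1 and 4616 for STIM2. STIM1 stood highest at 30.5 ± 5.84 RPKM (SD, n = 6) and ORAI1 followed at 17.8 ± 8.07 RPKM. ORAI3 stood at 1.52 ± 0.649, STIM2 at 0.831 ± 0.181 and ORAI2 at 0.414 ± 0.183 RPKM. One sensor and one channel gene were thus far more abundant than their paralogs. Among the 17644 genes ranked by RPKM, STIM1 lay between the 85.8 and 92.2 percentiles of a library, and ORAI1 reached the 88.8 percentile and ranked lowest in STH replicate 2. The other 3 genes lay at or below the 48.4 percentile in every library.

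This order was tested between genes of the same library, over the 6 animals, on the log2(RPKM + 0.1) scale with a two-sided exact sign-flip permutation test adjusted over all 10 pairs. STIM1 exceeded ORAI1 by 0.93 (SD 0.61, n = 6), a fold of 1.91, in 6 of 6 libraries (exact p = 0.03125, the smallest that 6 animals allow, adjusted p = 0.0347). ORAI1 exceeded ORAI3 by 3.41, a fold of 10.6, and STIM2 exceeded ORAI2 by 0.91, both in 6 of 6 libraries and with the same p-values. In all, 9 of the 10 pairs reached that p. The remaining pair was ORAI3 and STIM2, which differed by 0.70 (SD 0.63, n = 6), with ORAI3 higher in 5 of 6 libraries (exact p = 0.0938, adjusted p = 0.0938). Between the sensors STIM1 exceeded STIM2 by 5.04, a fold of 32.9. These mean differences pool the breeds, and those with ORAI1 include its lower values in STH, which were known beforehand. The RPKM ratio of STIM1 to ORAI1 lay between 1.18 and 1.61 in QHMM and between 2.01 and 3.95 in STH.

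**Figure D1:**
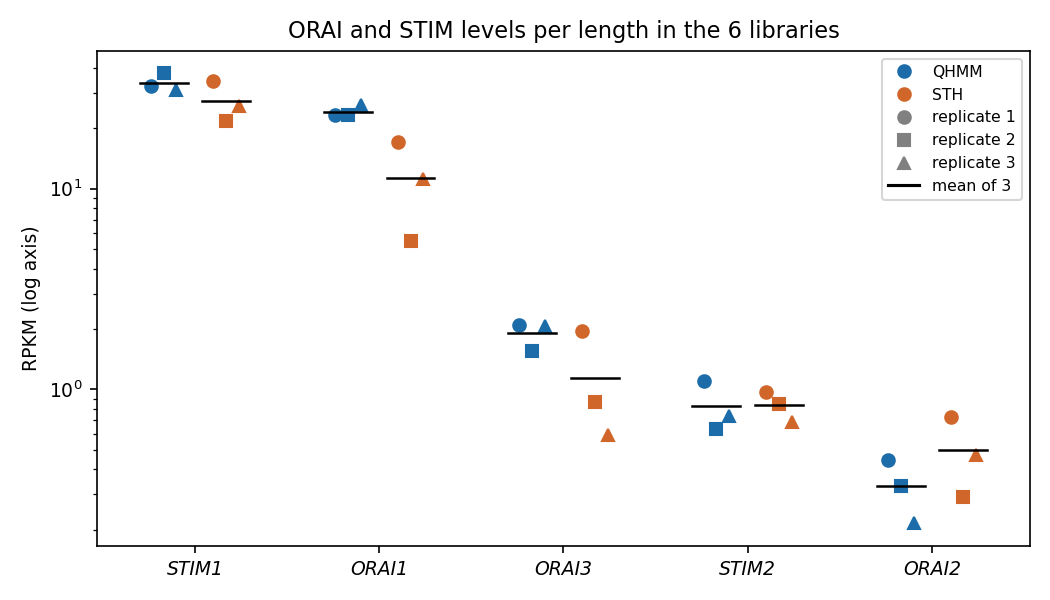
RPKM of the 5 genes on a log axis, with 1 point for each library, QHMM in blue, STH in orange, and a line at the mean of the 3 animals of each breed. STIM1 and ORAI1 lie above the other 3 genes in every library, and ORAI1 of STH replicate 2, at 5.48 RPKM, is the lowest ORAI1 value.

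ORAI1, the main pore subunit of the channel, had 464, 423 and 452 counts in QHMM replicates 1 to 3 and 313, 84 and 212 counts in STH replicates 1 to 3. Every STH library was below every QHMM library, and STH replicate 2 was well below the other STH libraries. Scaled by TMM library sizes, the QHMM libraries held 414, 495 and 459 normalized counts, and the STH libraries 258, 89.7 and 237. The means were 456 ± 40.5 (SD, n = 3) and 195 ± 91.9 (SD, n = 3), a log2 fold change of −1.22 with an SE of 0.34, or 2.33-fold higher in QHMM. Under the other settings with all libraries it ran from −1.33 to −1.10. Of all tested genes, 3.70% had a lower log2 fold change, from which nothing is read because ORAI1 was known beforehand to be lower in STH. The coefficient of variation over the animals was 8.88% in QHMM and 47.1% in STH, where the highest library had 2.88 times the lowest, and no test of that difference in spread was made. STH replicate 2 was also the library with the fewest counted reads, which the scaling takes into account. Counting error alone gave STH replicate 2 a 95% exact Poisson interval of 71.6 to 111 normalized counts, which held none of the other 5 values. Without STH replicate 2 the log2 fold change was −0.90, and without STH replicate 1 it was −1.49. In bulk muscle, fewer cells of a type and less RNA per cell cannot be told apart.

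ORAI3, a subunit known from mammals that can join ORAI1 in mixed channels, had 60, 40 and 51 counts in QHMM and 51, 19 and 16 counts in STH. On this raw scale STH replicate 1 lay within the QHMM libraries. After scaling, QHMM had 53.6, 46.8 and 51.8 normalized counts, against 42.1, 20.3 and 17.9 for STH. The groups did not overlap on that scale, but in RPKM they did, with STH replicate 1 at 1.95 and QHMM replicate 2 at 1.55. The means were 50.7 ± 3.49 and 26.8 ± 13.3 normalized counts (SD, n = 3 each), a log2 fold change of −0.90 with an SE of 0.38. It was −1.42 without STH replicate 1 and −0.68 without STH replicate 3, so its size rested on single STH libraries, and on the log2(RPKM + 1) scale, which understates low genes, it was −0.49. As with ORAI1, the QHMM animals lay close together, with a coefficient of variation of 6.89% against 49.8% in STH.

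ORAI2, the least abundant channel gene, had 12, 8 and 5 counts in QHMM and 18, 6 and 12 in STH. The groups overlapped, and these few reads were the limit, since the 5 counts of QHMM replicate 3 had a 95% exact Poisson interval of 1.62 to 11.7 counts and the 18 counts of STH replicate 1 one of 10.7 to 28.4. The log2 fold change was 0.47 with an SE of 0.54, from means of 8.38 ± 2.94 normalized counts in QHMM and 11.6 ± 4.52 in STH (SD, n = 3 each). It was 0.21 without QHMM replicate 3, 0.22 without STH replicate 1 and 0.73 without STH replicate 2. Among the 5 genes only ORAI2 had a higher mean normalized count in STH.

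STIM1, the main sensor, had 2024, 2115 and 1655 counts in QHMM and 1955, 1029 and 1523 in STH. STH replicate 2, lowest for ORAI1, was also lowest for STIM1, and QHMM replicate 2 was the highest. After scaling, QHMM held 1807, 2475.5 and 1680.1 normalized counts and STH held 1613, 1099 and 1706, and the groups overlapped. The log2 fold change was −0.43 with an SE of 0.26, and it was −0.24 without QHMM replicate 2 and −0.28 without STH replicate 2.

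STIM2, the second sensor, which responds to smaller losses of store calcium, had 73, 38 and 42 counts in QHMM and 59, 43 and 43 in STH. The groups overlapped, and the normalized counts spread further in QHMM (65.2, 44.5 and 42.6) than in STH (48.7, 45.9 and 48.2). The log2 fold change was −0.10 with an SE of 0.30, and it was 0.02 with scaling by library totals alone and 0.11 without QHMM replicate 1, so STIM2 had no stable sign.

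**Figure D2:**
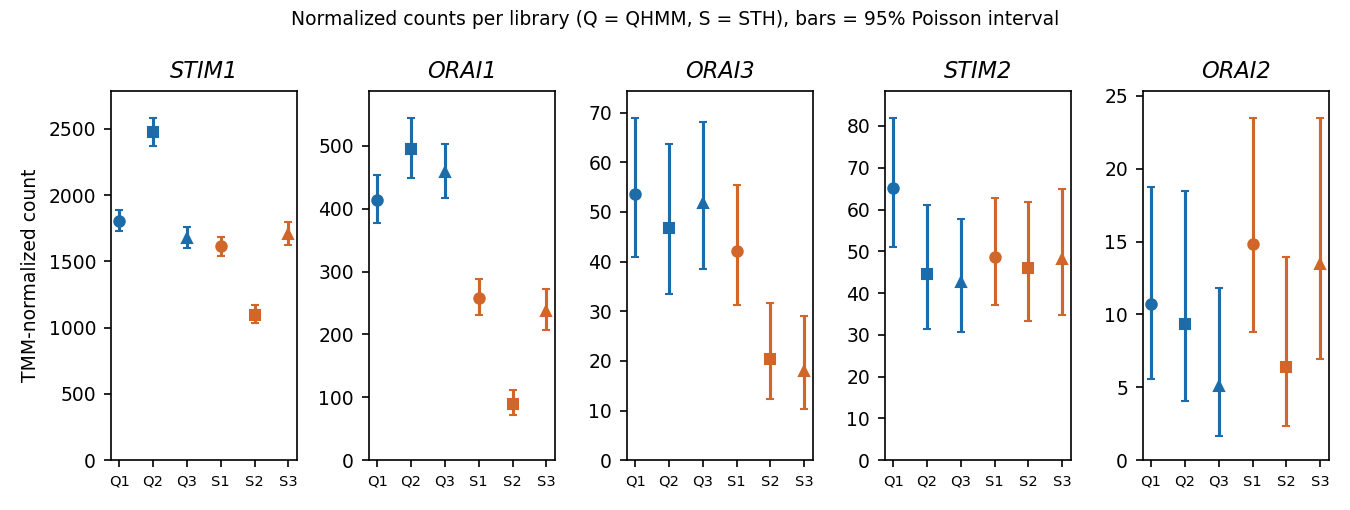
Normalized counts of each gene in every library, 1 panel for each gene with its own axis from 0, points for animals (Q for QHMM, S for STH) and bars for the 95% Poisson interval of the count. The points of ORAI1 and ORAI3 do not overlap between breeds, whereas ORAI2, STIM1 and STIM2 do.

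Over all 12506 tested genes, all STH libraries lay below all QHMM libraries in 11.7%, as they did in ORAI1 and ORAI3. Since the 5 genes were put forward with this contrast known, nothing is read from that count. The median log2 fold change of all tested genes was 0.02, and 4 of the 5 genes had a negative one.

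The balance of the genes within a library followed from these values. The summed RPKM of the 3 channel genes came to 25.7, 25.2 and 28.4 in QHMM. In STH it came to 19.8, 6.64 and 12.3, all below the QHMM libraries. The summed RPKM of the 2 sensor genes overlapped, at 33.7, 38.3 and 31.6 for QHMM against 35.4, 22.5 and 26.7 for STH. The ratio of STIM1 to ORAI1 was thus 1.41, 1.61 and 1.18 in QHMM and 2.01, 3.95 and 2.32 in STH. Every STH library had a higher ratio than every QHMM library, and the highest belonged to STH replicate 2, the library with the least ORAI1. Within the channel family ORAI1 made up between 82.6% and 92.6% of the RPKM, and within the sensors STIM1 made up between 96.2% and 98.3%. ORAI2 took 1.73%, 1.30% and 0.756% of the channel RPKM in QHMM and 3.69%, 4.38% and 3.84% in STH, a share that rests on the few ORAI2 reads above and on the lower ORAI1 in the denominator.

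**Figure D3:**
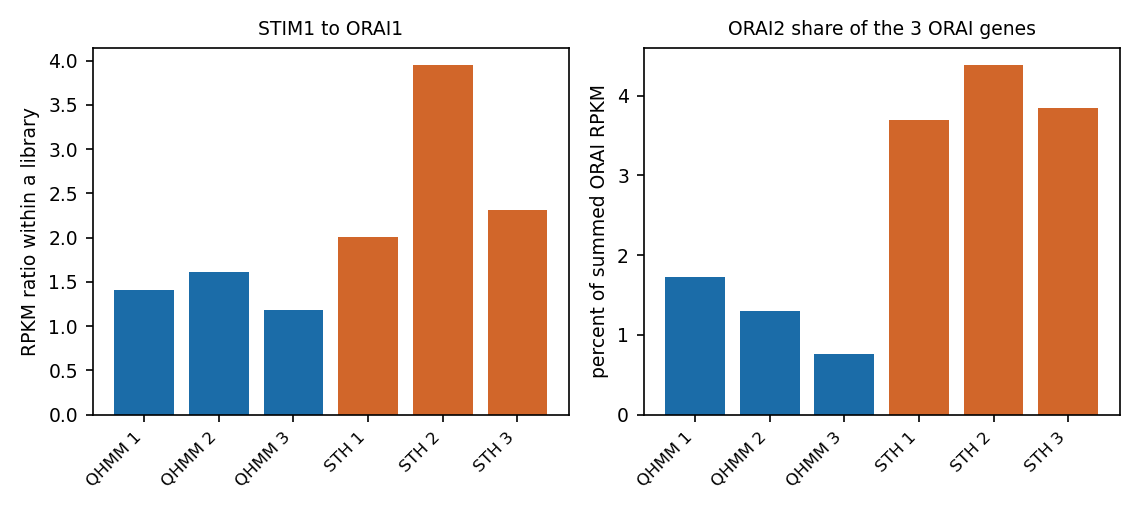
Bars from 0 for each library, QHMM in blue and STH in orange, of the ratio of STIM1 RPKM to ORAI1 RPKM (left) and of ORAI2 as a percent of the summed ORAI RPKM (right). The ratio lies between 1.18 and 1.61 in QHMM and between 2.01 and 3.95 in STH, and the ORAI2 share is at least 3.69% in STH and at most 1.73% in QHMM.

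The other genes of calcium entry and handling were read from 7 lists with 65 listed genes, of which 53 were tested. At an FDR under 0.05 and a fold change over 1.5, edgeR called 432 of all 12506 tested genes, or 3.45%, with 1.83% called as lower in STH. Of the 53 it called 2, both lower in STH. An unadjusted p under 0.05 was reached by 16 of the 53, against 19.2% of all tested genes, and DESeq2 called 11 of the 53, against 7.8%. The median log2 fold change of the 53 was −0.23, with 69.8% of the 53 negative against 48.2% of all tested genes. All 7 lists were chosen with earlier results of these data known. These shares, and those of single lists below, are therefore a description from which no conclusion is drawn. The list of store-operated calcium entry regulators held 1 of the 2 called genes, JPH2, which encodes a junctophilin that ties the surface membrane to the sarcoplasmic reticulum. JPH2 had 877, 866 and 817 normalized counts in QHMM and 175, 63.0 and 310.3 in STH, and fell by 2.22 on the log2 scale (SE 0.44, FDR 0.0248). As for ORAI1, STH replicate 2 was the lowest library. The call was lost without QHMM replicate 1, 2 or 3, at FDRs of 0.0664, 0.0619 and 0.0659, with log2 fold changes of −2.22, −2.21 and −2.25. Of the 12 tested regulators, 6 were lower and 6 higher in STH, with a median of −0.02. JPH1, the most abundant regulator at 174 RPKM and the junctophilin typical of skeletal muscle, had a log2 fold change of −0.13 with an SE of 0.24. SYPL2, which encodes the triad protein mitsugumin 29 and is named after its values were seen, had 1801, 1967.5 and 1452 normalized counts in QHMM and 826, 365 and 1085.5 in STH, with an FDR of 0.0895.

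The store pumps and buffers held the other called gene, CASQ2, which encodes the calsequestrin of heart and slow muscle fibres, a calcium-binding protein inside the store. CASQ2 had 645, 420.2 and 800.0 normalized counts in QHMM and 322, 250.0 and 178 in STH, and fell by 1.31 (SE 0.30, FDR 0.0409). The groups did not overlap. The call was lost without QHMM replicate 1 or 3 and without STH replicate 2 or 3, at FDRs of 0.0986, 0.127, 0.0993 and 0.0896, with library totals alone at 0.158, and with limma at 0.128 on log2(RPKM + 1) and 0.138 on log2(RPKM + 0.1). CASQ1, the other calsequestrin gene, is also named after its values were seen. It had 38102, 53233 and 44615 normalized counts in QHMM and 13211, 11082 and 28457 in STH, with no overlap. Its log2 fold change was −1.37 (SE 0.37), not called by edgeR at an FDR of 0.0714. It was called by DESeq2, with library totals alone, with no filter on low counts and by limma on both RPKM scales. With 1 library left out, CASQ1 was called only without STH replicate 3. All 11 tested genes of this list had a negative log2 fold change, with a median of −0.85, although CALR, a calcium-binding protein of the store named after its values were seen, was at −0.01 (SE 0.24) and turned positive with library totals alone (0.10), the replicate block (0.01) and limma (0.13 on both RPKM scales). Of the 11, 6 reached an unadjusted p under 0.05 and DESeq2 called 6, against 19.2% and 7.8% of all tested genes. The most abundant was ATP2A1, the calcium pump of fast fibres, at 4037.5 RPKM, with a log2 fold change of −0.71 and an SE of 0.33.

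The remaining lists had no gene called by edgeR. Of the 14 tested calcineurin and NFAT genes, the calcium-dependent phosphatase and its transcription factors, 5 reached an unadjusted p under 0.05 and DESeq2 called 3, beside the same 19.2% and 7.8% of all tested genes, with a median log2 fold change of −0.32. MYOZ1, which encodes a calcineurin-binding protein of the Z-disc, was the most abundant at 2298 RPKM, with 0.26 and an SE of 0.30. Of the 4 tested genes of calcium extrusion, 2 reached an unadjusted p under 0.05 and DESeq2 called 0, and SLC8A3, a sodium-calcium exchanger at 7.71 RPKM, had −0.66 with an SE of 0.21. The 3 TRPC channels, 4 store release channels and 5 genes of mitochondrial calcium uptake that were tested held 0 genes with an unadjusted p under 0.05 and 0 called by DESeq2. Their medians were 0.44, −0.08 and 0.04. The TRPC median was the value of a single gene with an SE of 0.79 and between 1 and 27 counts in a library. RYR1, the store release channel of skeletal muscle, was counted at 514 RPKM with a log2 fold change of −0.30 and an SE of 0.30.

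**Figure D4:**
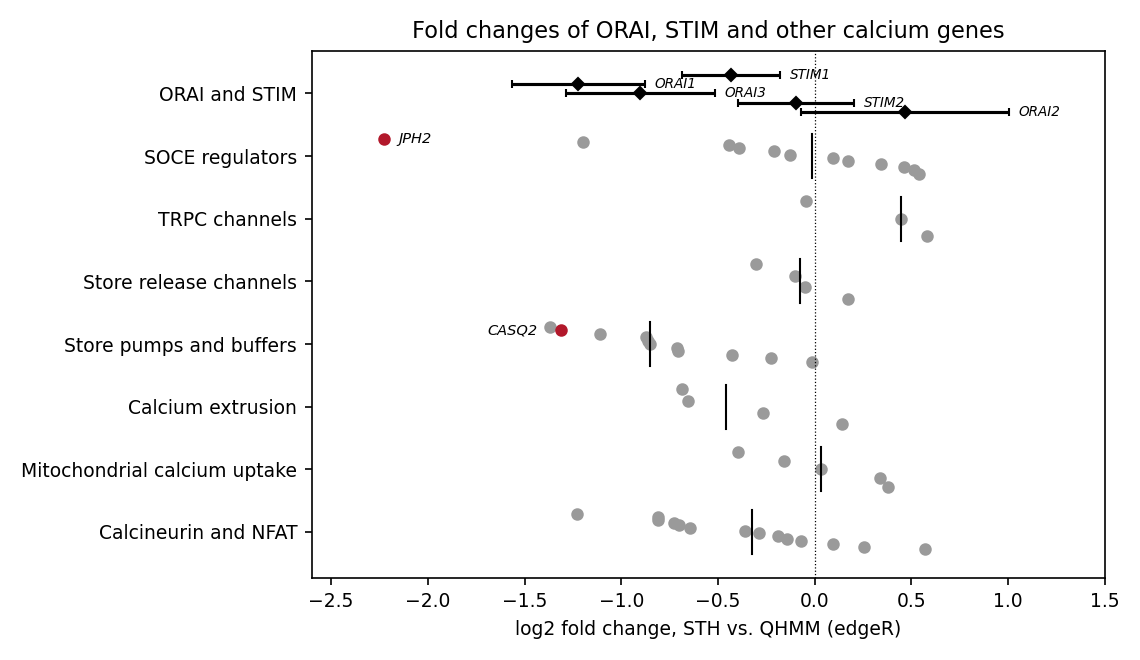
Log2 fold change of STH vs. QHMM from edgeR, with diamonds and SE bars for the 5 genes and points for the tested genes of the 7 calcium lists, with a vertical tick at each list median and red points for called genes. JPH2 and CASQ2 are the 2 called genes, and the store pumps and buffers lie at or below 0, with a median of −0.85.

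Markers of fibre and cell types were summed in RPKM to show what else moved with the libraries. Of the 9 slow fibre markers 7 were listed, and their sum lay between 16259 and 23483 in QHMM and between 7190 and 10979 in STH. Of the 7 tested, 4 were called as lower in STH, against 1.83% of all tested genes. The 4 satellite cell markers summed to between 4.08 and 7.35 in QHMM, against 8.26 to 10.6 for STH. Of the 3 tested, 1 was called as higher in STH, as were 203 of all 12506 tested genes. The sums of these 2 lists did not overlap between breeds. Of all tested genes, 24.7% did not overlap as single genes in normalized counts, which is another scale and no background for summed RPKM. The marker lists too were chosen with earlier results of these data known. The part of these 2 lists, or of any other marker list, in the ORAI1, ORAI3, JPH2 and CASQ2 values was not tested. The sums of the other 8 lists overlapped. Fast fibre markers summed to between 52465 and 73135 in QHMM and 48091 and 63619 in STH, and skeletal muscle fibre markers to between 85304 and 97500 and between 63425 and 103540, so markers of the labelled tissue were abundant in every library, although TNNT3, a fast troponin, was listed at 0 throughout. Immune markers, from cells in which ORAI1 and STIM1 are also active, summed to between 41.3 and 55.3 in QHMM and 29.9 and 64.3 in STH, and endothelial markers to between 143 and 196 and between 147 and 233. Adipocyte markers summed to between 59.2 and 276 in QHMM, against 40.3 to 129 for STH. Of the 5 tested, 4 were called as lower in STH, against the same 1.83% of all tested genes. Fibroblast markers lay between 278 and 524 and between 201 and 406, and smooth muscle markers between 93.8 and 288 and between 159 and 300. Blood markers lay between 0 and 2.34 and between 0.0727 and 1.10, with PPBP and GP9 at 0. Only 4 of the 7 blood markers were listed, without HBB, HBA1 and HBA2, and 0 were tested. The amount of blood therefore cannot be read from this sum. Also incomplete were the fast fibre (7 of 9 listed, without MYH1 and MYH2), endothelial (4 of 8) and fibroblast (4 of 6) lists. So were the skeletal muscle fibre (7 of 8), immune (9 of 10) and adipocyte (5 of 6) lists.

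The genes whose pattern over the 6 libraries was most like that of ORAI1 were found by Pearson's r of log2 normalized counts among 7144 genes with a mean count of at least 100, given as a description in which the breed difference and the libraries are shared by all genes. They were LOC101108705, annotated as glutathione S-transferase Mu 1-like (r = 0.992), CDK5RAP1 (0.992), STBD1 (0.991), MKL1 (0.989) and CAMK2 (0.987). STBD1, a glycogen-binding protein, was itself called, with a log2 fold change of −1.99. For STIM1 they were UBAP2 (0.997), NUP93 (0.996), PRPF19 (0.990), PPP1R3D (0.989) and SLC25A11 (0.988). An r of at least 0.95 was reached by 102 genes for ORAI1 and by 45 for STIM1.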

How the data were processed

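Muscle RNA from 6 ewes was sequenced on Ion Proton. Read counts per gene and RPKM values were deposited by the authors in separate tables, with RPKM made by the authors from the counts, gene lengths and library totals. The submitters' notes name Oar 3.1. The aligner and counter settings and the use of strand are not given in the sources used here, so reads of overlapping or antisense genes cannot be told apart. Gene names that a spreadsheet had turned into dates were left out of the join of the tables, which kept 23119 genes.

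Counts were tested with edgeR 4.0.16 in R 4.3.3 (TMM, filterByExpr, quasi-likelihood F test, Benjamini-Hochberg adjusted FDR under 0.05 and fold change over 1.5). The study's own program was not used. DESeq2 1.42.0, limma 3.58.1 on log2(RPKM + 1) and log2(RPKM + 0.1), other normalizations and filters, a replicate block and leaving out each library served as alternatives. The edgeR, DESeq2 and limma steps were tested on simulated data. Replicates are separate animals. Poisson intervals cover counting error only.

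The 5 genes and all lists were chosen with earlier results of these data known. Named were the 5 genes, the called and the most abundant genes of each calcium list (for 2 lists the latter is not reported here), and the 5 genes most like ORAI1 and STIM1. SYPL2, CASQ1 and CALR were added after their values were seen. Reference gene records were of another assembly, so no coordinates or sequences are given.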

Additional observations from a re-analysis of the deposited data

How the results depend on the processing

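The number of genes called in STH vs. QHMM was 432 with edgeR, 975 with DESeq2, 806 with no filter on low counts and 250 with library totals alone, where 158 were higher and 92 lower in STH and the median log2 fold change of all genes was 0.14 against 0.02. On log2(RPKM + 1), limma called 346, of which 212 were higher. Leaving out 1 library gave between 131 (without QHMM replicate 1) and 535 (without STH replicate 1). The calcium list genes called were 2, with 11 by DESeq2, 4 with no filter and between 0 and 2 when a library was left out, 0 without QHMM replicate 1 or 3. The ORAI3 log2 fold change ranged from −1.42 to −0.68 with 1 library left out and from −0.99 to −0.49 over the other settings with all libraries. ORAI1 ranged from −1.33 to −1.10 over the other settings with all libraries and from −1.49 to −0.90 with 1 library left out. The deviations of same-numbered animals from their breed means had an r of 0.226, −0.038 and −0.13. Differently numbered animals of the 2 breeds ranged from −0.263 to 0.287. With 3 animals per breed these values cannot settle whether the numbers pair the animals. A replicate block called 457 genes. The order of levels kept its direction in all 10 pairs with pseudocounts of 1 and 0.01 and with any 1 library left out, where 5 animals could not pass the test. ORAI2, ORAI3 and STIM2 rested on few reads.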
